A study of Mus musculus with 24 samples.

Results

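The 9 genes described here are Fth1, Ftl1, Tfrc, Slc11a2, Slc40a1, Aco1, Ireb2, Gpx4 and Acsl4, which store, import, export or sense iron or set how readily membrane lipids are oxidised. They were picked by symbol as genes of this biology, by a rule that has no threshold on measured values but with earlier results of these data known, and all 9 were present in each of the 4 deposited tables, among 14769 genes listed in any table. The study sequenced ribosome-depleted cortical RNA of male mice, 3 to 4 months old, all of which had undergone transient middle cerebral artery occlusion, a filament model of ischemic stroke, with 1 h of occlusion and 1 day of reperfusion. Each animal gave a library labelled CL and a library labelled PI, and the 24 libraries form 4 groups of 6, named by side and genotype: CL and PI of WT animals, CL and PI of KO animals. The labels do not spell out CL and PI, which are used as given. The strain entry of every animal, WT animals included, is C57BL/6N-Cdr1asem1Nikr, which names an edited allele of Cdr1as, the gene of a circular RNA abundant in neurons, and the genotype entry marks each animal as WT or KO. The replicates are 6 separate animals per genotype, all animals were operated, and no group is unoperated.

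Iron enters cells bound to transferrin, whose receptor TFRC carries it into endosomes, where the transporter DMT1, the product of Slc11a2, moves it into the cytosol. Iron that is not used is stored in ferritin, a shell of heavy (FTH1) and light (FTL) chains, or leaves the cell through ferroportin, the product of Slc40a1. The iron regulatory proteins IRP1 and IRP2, encoded by Aco1 and Ireb2, bind stem-loops in messenger RNAs when iron is scarce: in a 5′ untranslated region (UTR) they block translation, and in the 3′ UTR of Tfrc they stabilise the message. Free ferrous iron feeds the oxidation of membrane phospholipids, and ferroptosis is the death that follows when GPX4, which reduces lipid peroxides, cannot keep up; ACSL4 loads the polyunsaturated fatty acids that are oxidised. Because much of this control acts on translation and protein turnover, messenger RNA levels show only part of it.

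The stem-loops recognised by IRP1 and IRP2, the iron-responsive elements, are shown because a strict motif for them was found in 4 of the 9 genes. They were searched in the UTRs of all complete protein-coding transcripts of each gene (GENCODE M21, build GRCm38), on the sense strand only. The motif was an unpaired C, 5 stem bases, the loop CAGTGN and 5 bases that pair with the stem, G-T pairs allowed. The loop is in capitals, and each line runs 5′ to 3′ over 30 bases.
Fth1 5′ UTR, chr19:9982732-9982761, plus strand: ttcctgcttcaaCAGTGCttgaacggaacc
Ftl1 5′ UTR, chr7:45459778-45459807, minus strand: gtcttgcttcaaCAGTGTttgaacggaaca
Slc40a1 5′ UTR, chr1:45925464-45925493, minus strand: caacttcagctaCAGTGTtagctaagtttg
Tfrc 3′ UTR, chr16:32631219-32631248, plus strand: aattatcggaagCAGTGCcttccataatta
Tfrc 3′ UTR, chr16:32631598-32631627, plus strand: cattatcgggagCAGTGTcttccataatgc
Tfrc 3′ UTR, chr16:32631663-32631692, plus strand: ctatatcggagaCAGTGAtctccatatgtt
Tfrc 3′ UTR, chr16:32631710-32631739, plus strand: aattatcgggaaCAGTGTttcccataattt
The same motif was found in the 5′ UTR of 28 of 20489 genes (0.137%) and in the 3′ UTR of 127 of 20850 genes (0.609%). A match is a sequence description. For the other 5 genes, Slc11a2 among them, the motif was in none of the UTRs searched, and looser forms of it were not searched.

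The deposited values are log2 CPM (a gene's reads scaled to a common library total, on a log2 scale) in 4 tables, 1 per pair of groups, each scaled on its own, so that levels are compared only within a table. In every gene and group the 2 lowest and the 2 highest of the 6 deposited values were equal, because the extremes had been drawn in to the group's quartiles. The 4 inner values were recovered exactly and the lowest and highest were not, so "lowest" and "highest" below are the second lowest and second highest library. Levels are trimmed means of these 4 values ± SE, n = 6. Counts of animals higher or lower in PI use the deposited values, so the true direction may differ in an animal with a drawn-in extreme. Where the recoverable values of PI and CL do not overlap, such a count is fixed at 6 of 6 and adds no support. Read depth, inferred from the step size of low values, was 3.75 to 10.5 M reads per library with a median of 6.91 M, and 3 reads corresponded to 0.286 to 0.8 CPM. CL KO replicate 6 stood apart, with the fewest reads and a place among the tied extremes in 89.4% of genes in the KO table of both sides, against 53.0% to 80.7% for the other libraries. Its inferred depth assumes that a step is 1 read; had its reads been counted in pairs, the depth would be higher and no longer the lowest. The Cdr1as row lay at 3463 to 3900 CPM in CL WT and 2544 to 2940 CPM in PI WT, and its highest recoverable value in KO libraries was 0.169 CPM in PI and 0.148 CPM in CL, so this row matched every group's label. Markers of cortical excitatory neurons, Slc17a7, Cux2, Tbr1, Neurod6 and Camk2a among them, were listed in the 4 tables; those that differed between the sides are given with the other cell type markers.

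Divided by transcript length, so that genes can be set side by side, levels in CL WT ran from 480 CPM per kb for Fth1 through 87.0 for Gpx4, 51.3 for Tfrc, 40.6 for Acsl4, 29.5 for Ireb2, 26.5 for Ftl1, 9.39 for Slc11a2 and 7.08 for Aco1 to 1.49 CPM per kb for Slc40a1. The places of Ftl1, Gpx4 and Fth1, and their differences between groups below, are uncertain, because their reads can also match other annotated genes. Of the 31-base words of the reference transcript, 85.4% for Ftl1 recurred in 30 other genes, 74.1% for Gpx4 in 2 other genes and 12.9% for Fth1 in 3 other genes, and the authors' handling of such reads is not given in the sources used here. The remaining members shared at most 0.920% of their words.

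The main test did not pair the libraries of an animal. The members it called between PI and CL were the ferritin chains, Fth1 in WT only and Ftl1 in both genotypes. In the paired trimmed-mean test both chains passed in both genotypes, Fth1 with an adjusted p of 0.0150 in WT and 0.0117 in KO. Fth1 (ENSMUSG00000024661.7, chr19:9980598-9985098, plus strand, 4 exons), the chain that oxidises ferrous iron, had a lowest, median and highest value of 8.75, 8.79 and 8.87 log2 CPM in CL WT and of 8.92, 9.003 and 9.03 in PI WT. The recoverable values of the groups did not overlap, so the deposited value was higher in PI in 6 of 6 animals. The trimmed mean rose from 446 to 508 CPM, a log2 fold change of 0.19 (SE 0.05, 95% interval 0.07 to 0.31), a fold of 1.14, with an adjusted p of 0.0383 in the moderated trimmed-mean test over all genes of the table. This call is narrow. With a library left out the log2 fold change stayed between 0.17 and 0.21, while the adjusted p passed 0.05 in 8 of the 12 fits: 0.0816, 0.0716, 0.0706 and 0.0651 without PI WT replicate 1, 2, 3 or 4, and 0.0862, 0.0802, 0.0820 and 0.0994 without CL WT replicate 2, 3, 4 or 6. With a prior variance that did not depend on expression the adjusted p was 0.121.

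Ftl1 (ENSMUSG00000050708.16, chr7:45457944-45459884, minus strand, 4 exons), the chain that helps to form the iron core, had a lowest, median and highest value of 4.62, 4.68 and 4.74 log2 CPM in CL WT and of 4.92, 5.04 and 5.14 in PI WT. All recoverable PI values lay above all recoverable CL values, which by itself puts the deposited value higher in PI in 6 of 6 animals. Ftl1 rose from 25.7 to 32.7 CPM, a log2 fold change of 0.35 (SE 0.08, 95% interval 0.17 to 0.53) and a fold of 1.27, with an adjusted p of 0.0155. The call was made in 12 of 12 fits with a library left out, with adjusted p between 0.0109 and 0.0420. How far reads of the other genes that share its words enter this difference is not known. These are whole-tissue libraries, in which fewer cells of a type and less RNA per cell cannot be told apart.

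In KO animals the same chains had similar values. Ftl1 was at 4.63, 4.67 and 4.76 log2 CPM (lowest, median and highest) in CL KO and at 5.02, 5.11 and 5.26 in PI KO, without overlap. It rose from 25.7 to 34.9 CPM, a log2 fold change of 0.44 (SE 0.09, 95% interval 0.25 to 0.64) and a fold of 1.36, with an adjusted p of 0.00816, and was higher in PI in 6 of 6 animals. Without CL KO replicate 6 the log2 fold change was 0.47 (adjusted p 0.0101). Fth1 was at 8.69, 8.80 and 8.87 log2 CPM in CL KO and at 8.91, 8.99 and 9.09 in PI KO, also without overlap and so with 6 of 6 animals higher in PI. Its log2 fold change was 0.21 (SE 0.07, 95% interval 0.05 to 0.36), close to that in WT, and missed the threshold with an adjusted p of 0.0909; without CL KO replicate 6 it was 0.23 (adjusted p 0.0863). When the libraries of an animal were paired, the same Fth1 difference passed with an adjusted p of 0.0117. The row of the ferritin pseudogene Fth-ps2 did not pass in either genotype, with a log2 difference of 0.47 (SE 0.30) in WT and -0.54 (SE 0.46) in KO.

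**Figure D1:**
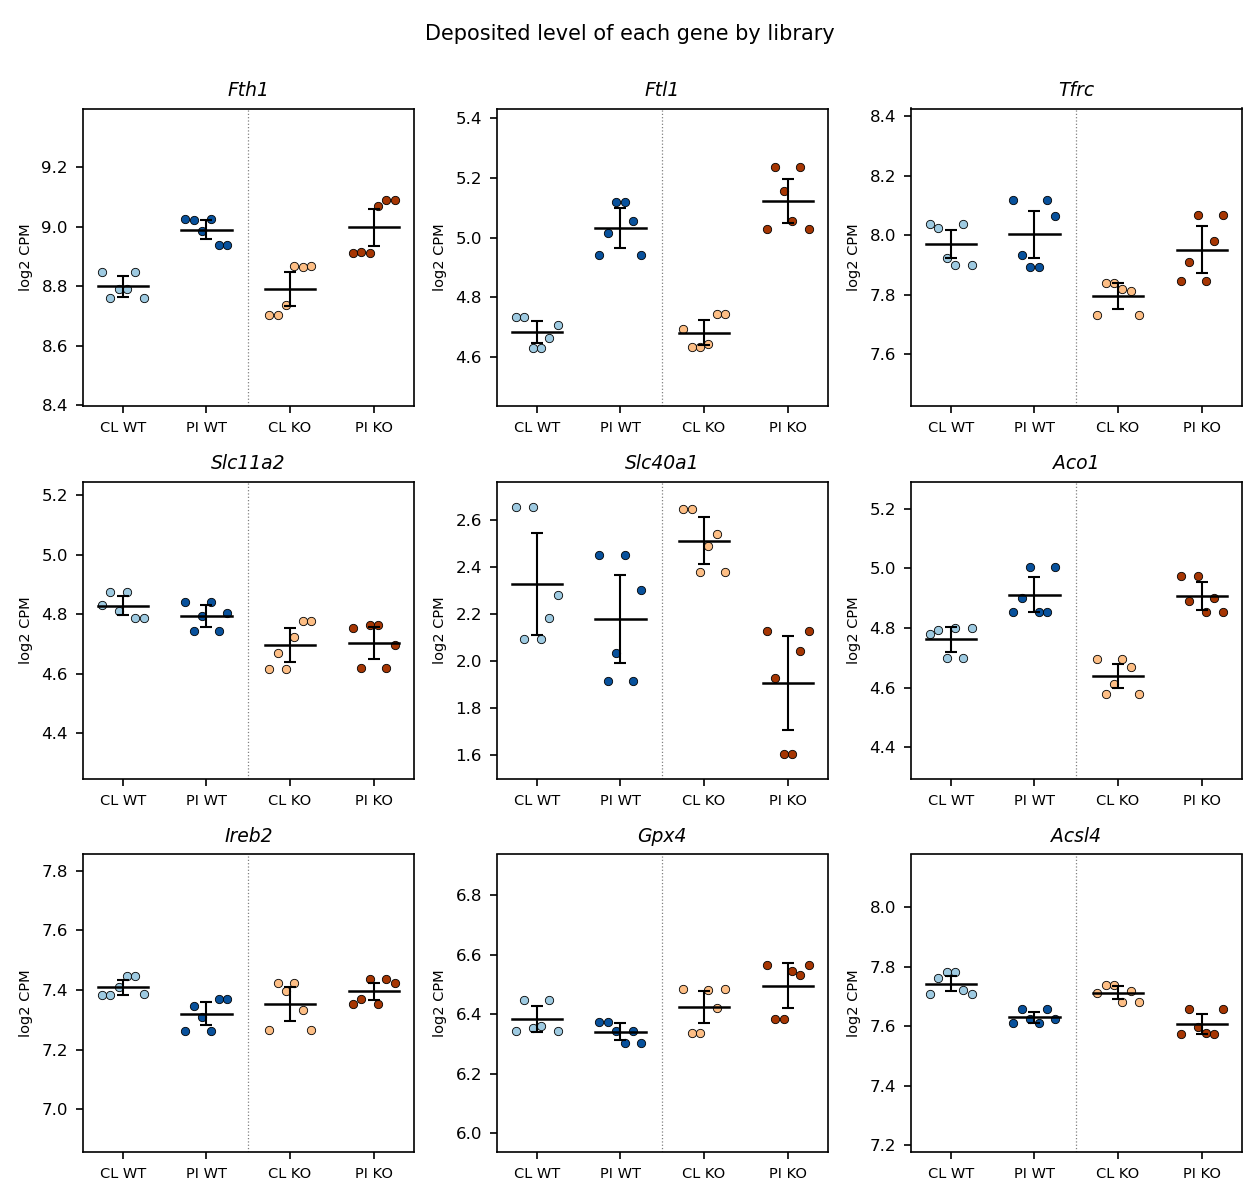
Deposited log2 CPM (y axis, a log2 scale) of each of the 9 genes in the 24 libraries by group (x axis), WT groups from the table of PI WT and CL WT and KO groups from the table of PI KO and CL KO. Points are libraries, horizontal lines are trimmed means and bars are ± SE (n = 6); the ferritin genes Fth1 and Ftl1 lie higher in PI in both genotypes, and every axis spans at least 1 log2 unit.

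Of the genes of iron entry, neither passed between the sides in either genotype. Tfrc (chr16:32608920-32632794, plus strand), the transferrin receptor, was at 7.89, 7.97 and 8.04 log2 CPM in CL WT and 7.88, 8.0002 and 8.14 in PI WT, ranges that overlap almost entirely. Its log2 difference was 0.03 in WT (SE 0.08, adjusted p 0.848) and 0.16 in KO (SE 0.08, 95% interval -0.01 to 0.32, adjusted p 0.232). In KO it was at 7.71, 7.82 and 7.85 in CL and 7.82, 7.94 and 8.10 in PI, and higher in PI in 6 of 6 animals. With KO animals paired, the trimmed-mean test of Tfrc gave p 0.0244 and an adjusted p of 0.114. Slc11a2 (chr15:100387898-100425072, minus strand), which encodes the endosomal iron transporter, differed by -0.03 in WT (SE 0.07, adjusted p 0.832) and by 0.01 in KO (SE 0.09, adjusted p 0.976). It lay between 4.78 and 4.89 log2 CPM in CL WT and between 4.73 and 4.85 in PI WT, and between 4.598 and 4.80 in CL KO and 4.596 and 4.77 in PI KO. The 95% interval in WT ran from -0.19 to 0.12, and 2 of 6 WT animals and 3 of 6 KO animals were higher in PI.

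Slc40a1 (chr1:45908068-45926523, minus strand), the only known cellular iron exporter, was the member with the lowest level and the widest spread. It was at 2.06, 2.23 and 2.78 log2 CPM in CL WT and 1.88, 2.17 and 2.501 in PI WT, overlapping ranges with a log2 difference of -0.15 (SE 0.24, 95% interval -0.66 to 0.37, adjusted p 0.771). In CL KO it was at 2.34, 2.51 and 2.68 and in PI KO at 1.499, 1.99 and 2.16, which do not overlap. The KO trimmed means were 5.70 CPM in CL and 3.75 CPM in PI, a log2 difference of -0.61 (SE 0.21, 95% interval -1.06 to -0.15). The value was lower in PI in 6 of 6 KO animals, and the difference did not pass, with an adjusted p of 0.0906, of 0.0535 when animals were paired and of 0.0870 without CL KO replicate 6. The change in KO was not shown to differ from that in WT: the interaction was -0.46 (SE 0.33, adjusted p 0.992).

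The iron sensors did not pass in either genotype. Aco1 (chr4:40143081-40198338, plus strand), which encodes a cytosolic aconitase that becomes IRP1 on losing its iron-sulfur cluster, was at 4.67, 4.79 and 4.80 log2 CPM in CL WT and 4.85, 4.88 and 5.04 in PI WT. In KO it was at 4.57, 4.64 and 4.70 in CL and 4.84, 4.90 and 4.9998 in PI. In both genotypes the recoverable PI values lay above the CL values, so the deposited value was higher in PI in 6 of 6 WT and 6 of 6 KO animals. The log2 differences were 0.15 in WT (SE 0.08, 95% interval -0.02 to 0.33, adjusted p 0.290) and 0.27 in KO (SE 0.08, 95% interval 0.09 to 0.45, adjusted p 0.0564). In KO the adjusted p was 0.0453 when libraries were centred on the genes above the median level, 0.0581 with paired animals and 0.0913 without CL KO replicate 6.

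Ireb2 (chr9:54863789-54912530, plus strand) encodes IRP2, which is degraded when iron is plentiful. It was at 7.38, 7.40 and 7.46 log2 CPM in CL WT and 7.25, 7.33 and 7.38 in PI WT, lower in PI in 6 of 6 animals without overlap, and its log2 difference was -0.09 (SE 0.06) with an adjusted p of 0.364. In KO it was at 7.25, 7.37 and 7.43 in CL and 7.35, 7.40 and 7.44 in PI, where 4 of 6 animals were higher in PI and the log2 difference was 0.04 (SE 0.06, adjusted p 0.741). The interaction of 0.13 (SE 0.08, p 0.129, adjusted p 0.992) did not pass.

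The genes of lipid peroxidation showed small differences. Gpx4 (chr10:80047166-80056439, plus strand), the selenoenzyme that reduces phospholipid hydroperoxides, was at 6.34, 6.36 and 6.48 log2 CPM in CL WT, 6.29, 6.35 and 6.39 in PI WT, 6.31, 6.45 and 6.49 in CL KO and 6.34, 6.54 and 6.57 in PI KO. The groups overlapped in both genotypes. Its log2 difference was -0.04 in WT (SE 0.06, adjusted p 0.746), with 5 of 6 animals lower in PI, and 0.07 in KO (SE 0.08, adjusted p 0.650), with 6 of 6 higher in PI; the interaction was 0.11 (SE 0.10, adjusted p 0.992). Acsl4 (chrX:142317993-142390535, minus strand), the acyl-CoA synthetase with a preference for polyunsaturated fatty acids, was at 7.70, 7.74 and 7.79 log2 CPM in CL WT and 7.605, 7.62 and 7.67 in PI WT, without overlap. It was at 7.67, 7.72 and 7.75 in CL KO and 7.57, 7.59 and 7.68 in PI KO, which overlap slightly. All 6 WT and all 6 KO animals were lower in PI, and the log2 difference was -0.11 in WT (SE 0.05, p 0.0410, adjusted p 0.186) and -0.11 in KO (SE 0.05, p 0.0726, adjusted p 0.2505).

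**Figure D2:**
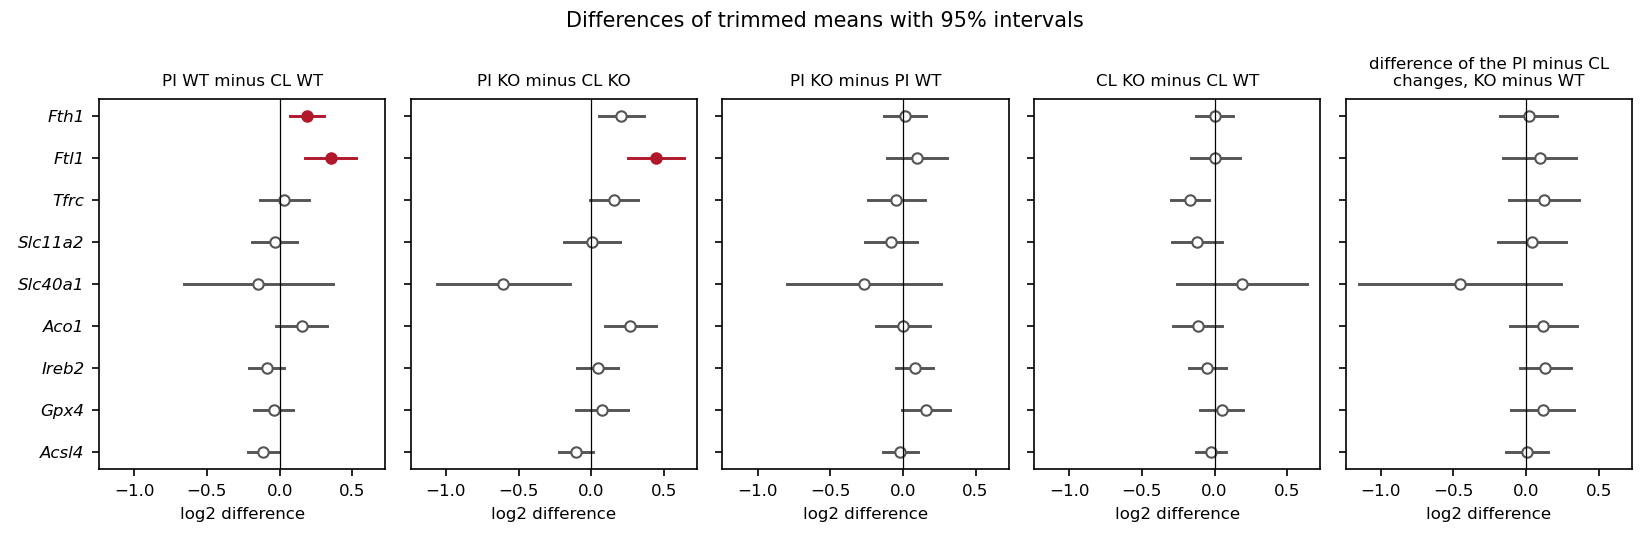
Log2 differences (x axis) of the 9 genes (y axis) in the 4 comparisons of groups and in the difference between the KO and WT changes. Points are differences of trimmed means, lines are 95% intervals, and filled red points passed the adjusted threshold of 0.05: Fth1 and Ftl1 between PI WT and CL WT, and Ftl1 between PI KO and CL KO.

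Counted together, 2 of the 9 genes passed between PI WT and CL WT, where 10.8% of 14489 genes passed in either direction and 5.29% were higher in PI. Between PI KO and CL KO 1 of 9 passed, where 10.1% of 14338 genes passed and 5.14% were higher in PI; with animals paired 2 of 9 passed, Fth1 and Ftl1, and the genes that passed went from 1450 to 2176. The recoverable values of PI and CL did not overlap for 5 of 9 genes in WT (Fth1, Ftl1, Aco1, Ireb2 and Acsl4), against 26.3% of all genes, and for 4 of 9 in KO (Fth1, Ftl1, Slc40a1 and Aco1), against 26.8% of all genes. The median log2 difference of the 9 genes was -0.03 in WT and 0.07 in KO, beside medians of 0.01 and -0.00068 over all genes. With 9 genes these shares say little about the set.

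**Figure D3:**
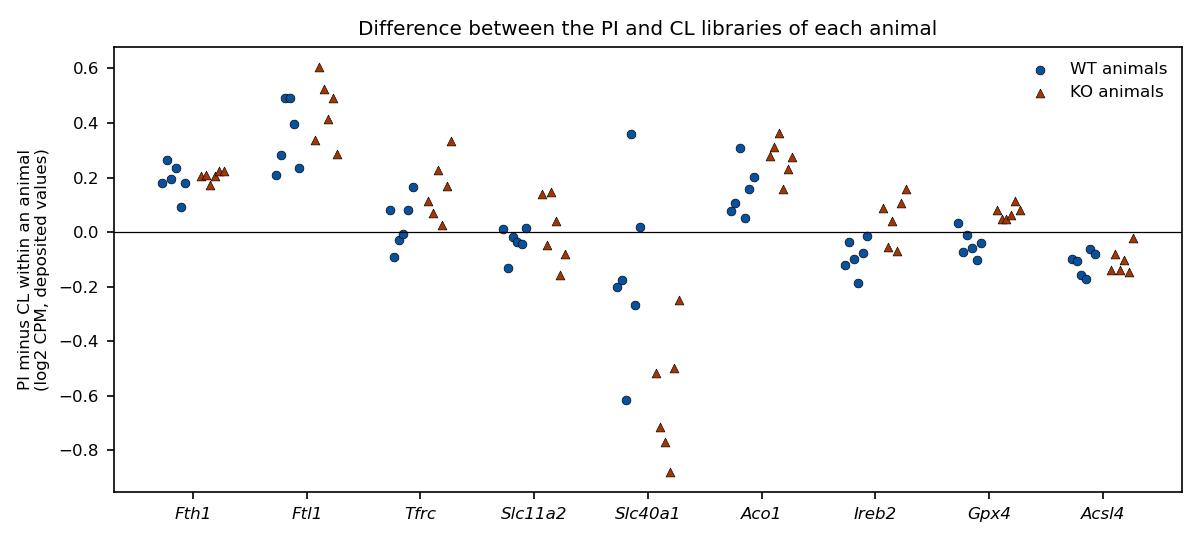
Difference between the PI and the CL library of each animal (y axis, log2 CPM as deposited, with extremes drawn in) for the 9 genes (x axis). Circles are the 6 WT and triangles the 6 KO animals; Fth1, Ftl1 and Aco1 are above 0 and Acsl4 below 0 in all 12 animals, while Ireb2 and Gpx4 are mixed between genotypes.

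Comparing genotypes on the same side asks whether loss of Cdr1as goes with other levels of these genes. Between PI KO and PI WT none of the 9 passed, with log2 differences from -0.27 to 0.16 and adjusted p from 0.852 to 0.998; 0 of 9 had an unadjusted p under 0.05, and 0.0208% of 14452 genes passed. Recoverable values overlapped for all 9, beside 8.97% of all genes without overlap. Gpx4 had the smallest p: it was at 6.32, 6.37 and 6.42 log2 CPM in PI WT and 6.37, 6.58 and 6.60 in PI KO, a log2 difference of 0.16 (SE 0.08, 95% interval -0.01 to 0.33, p 0.0566, adjusted p 0.852). The ferritin chains differed by 0.02 for Fth1 (95% interval -0.13 to 0.16) and 0.10 for Ftl1 (95% interval -0.11 to 0.30). Each interval holds differences of either sign, so the direction was not settled for these chains. Slc40a1 differed by -0.27 (SE 0.24, 95% interval -0.80 to 0.26), and Fth-ps2 by -0.92 (SE 0.44, adjusted p 0.852).

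Between CL KO and CL WT none of the 9 passed either, where 0.0279% of 14323 genes did. Tfrc was the member whose recoverable values did not overlap, against 8.67% of all genes. It was at 7.86, 7.94 and 8.01 log2 CPM in CL WT and 7.68, 7.79 and 7.82 in CL KO, a log2 difference of -0.17 (SE 0.06, 95% interval -0.30 to -0.04) with an unadjusted p of 0.0165, a level that 5.75% of all genes reached, and an adjusted p of 0.801. Without CL KO replicate 6 the Tfrc difference was -0.14 (adjusted p 0.793). The other 8 genes ranged from -0.12 for Slc11a2 to 0.19 for Slc40a1. The change from CL to PI was not shown to differ between KO and WT for any member: the interaction ran from -0.46 for Slc40a1 to 0.13 for Ireb2 (adjusted p at least 0.992, 95% intervals within -1.15 and 0.36), where 0% of 14211 genes passed and 0 of 9 members had an unadjusted p under 0.05.

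Around the 9 genes, 9 wider lists of iron and ferroptosis genes were drawn up, and 75 of their 91 genes were listed in a table. The lists of heme, of mitochondrial iron and of ferroptosis expression markers hold none of the 9. Leaving the 9 out, 14 of 66 genes rose and 6 fell between PI WT and CL WT, and 14 of 65 rose and 2 fell between PI KO and CL KO, with median log2 differences of 0.14 and 0.11. Over all genes tested 5.29% were higher in PI and 10.8% passed in either direction in WT, and 5.14% and 10.1% in KO; the counts per list below stand beside these shares, and no test compared a list with other genes. Among the genes of iron uptake beside Tfrc and Slc11a2, 4 of 8 rose in WT and 3 of 7 in KO. Lcn2, which binds iron-carrying siderophores, rose by 3.38 (SE 0.20, adjusted p 1.66e-06) in WT and 3.52 (SE 0.20, adjusted p 1.26e-06) in KO, and with a pseudocount of 2 CPM by 2.23 and 2.25. Trf, which encodes transferrin, the ligand of TFRC, rose by 1.18 (SE 0.24) in WT, from 38.7 to 47.1 CPM in CL to 59.1 to 127 CPM in PI, and by 1.41 (SE 0.18) in KO. The WT call of Trf was made in 8 of 9 other analysis settings, with an adjusted p of up to 0.0553. Slc39a14, a carrier of iron that is not bound to transferrin, rose by 0.75 in WT and 0.60 in KO. Steap4, a reductase of ferric iron, rose by 3.07 (SE 0.33) in WT; its CL WT values, 0.37 to 0.58 CPM, were near 3 reads, the value was 1.21 with a pseudocount of 2 CPM, and it was not tested in KO.

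For iron export, the ferroxidase gene Cp rose by 0.52 (SE 0.10, adjusted p 0.00526) in WT and 0.62 (SE 0.12, adjusted p 0.00542) in KO. Heph, which encodes the related ferroxidase hephaestin, fell by 0.62 (SE 0.15, adjusted p 0.0190) in WT and did not pass in KO, at -0.24 (SE 0.14, adjusted p 0.320). Without PI WT replicate 6 or CL WT replicate 2 the adjusted p of Heph was 0.0504 and 0.0530. In the heme list 1 of 8 genes rose in each genotype: Hmox1, which frees iron from heme, went from 1.48 to 3.08 CPM in CL WT to 9.42 to 21.3 CPM in PI WT, a log2 fold change of 2.78 (SE 0.35, adjusted p 0.000395), with 2.76 (SE 0.35, adjusted p 0.000426) in KO.

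None of the 3 other genes listed under iron storage and ferritin turnover, Ncoa4, Pcbp1 and Pcbp2, passed in either genotype. The largest differences were 0.09 for Pcbp2 in WT and 0.15 for Pcbp1 in KO. In iron sensing, Skp1, a subunit of the ubiquitin ligase that degrades IRP2, fell by 0.18 (SE 0.05, adjusted p 0.0362) in WT, a call made in 2 of 12 fits with a library left out; in KO it was at -0.13 (adjusted p 0.158) and none of the list passed.

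Beside Gpx4, 4 of 22 genes of ferroptosis defence rose and 2 fell in WT, and 5 rose and 1 fell in KO. Slc7a11 and Slc3a2, the chains of the cystine importer that feeds glutathione synthesis, rose by 1.05 (SE 0.12, adjusted p 0.000193) and 0.48 (SE 0.07, adjusted p 0.000741) in WT and by 0.78 (SE 0.13, adjusted p 0.00222) and 0.55 (SE 0.09, adjusted p 0.00266) in KO. Slc7a11 lay between 48.4 and 54.0 CPM in CL WT and between 90.0 and 126 CPM in PI WT. Txnrd1, a thioredoxin reductase, rose by 0.55 in WT and 0.58 in KO; without PI KO replicate 2 the KO adjusted p was 0.0515. The glutathione reductase gene Gsr rose by 0.45 (adjusted p 0.00225) in WT and was at 0.35 (adjusted p 0.139) in KO. Nfe2l2, which encodes the antioxidant regulator NRF2, and Gclm, a subunit of the enzyme that starts glutathione synthesis, rose by 0.62 (adjusted p 0.0244) and 0.32 (adjusted p 0.0233) in KO, each in 6 of 12 fits with a library left out, and were at 0.30 (adjusted p 0.266) and 0.25 (adjusted p 0.0575) in WT. Acsl3, which activates monounsaturated fatty acids, fell by 0.37 (adjusted p 0.00865) in WT and by 0.29 (adjusted p 0.0486) in KO, the latter in 2 of 12 such fits. Scd1, a desaturase that makes those acids, fell by 0.18 (adjusted p 0.0414) in WT, in 4 of 12 such fits, and was at -0.06 (adjusted p 0.677) in KO.

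Beside Acsl4, 3 of 6 genes listed as promoting lipid peroxidation rose and 1 fell in both genotypes. Cybb, the catalytic chain of the phagocyte NADPH oxidase, rose by 1.53 (SE 0.28) in WT and 2.40 (SE 0.50) in KO, the latter 1.99 without CL KO replicate 6. With a pseudocount of 2 CPM the Cybb changes were 0.84 and 1.33. Cyb5r1, a cytochrome b5 reductase, rose by 0.95 and 1.04, and Sat1, which acetylates polyamines, by 0.38 and 0.38. The WT call of Sat1 was made in 6 of 12 fits with a library left out. Alox12b, a lipoxygenase best known from skin, fell by 1.01 (adjusted p 0.0312) and 0.75 (adjusted p 0.0296), each in 6 of 12 such fits; without CL KO replicate 6 the KO adjusted p was 0.0585. Of the expression markers of ferroptosis, Ptgs2 rose by 0.49 (adjusted p 0.0212) in WT, in 7 of 12 such fits, and by 0.69 (adjusted p 0.00620) in KO, and Chac1 did not pass, at 0.38 and 0.65.

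**Figure D4:**
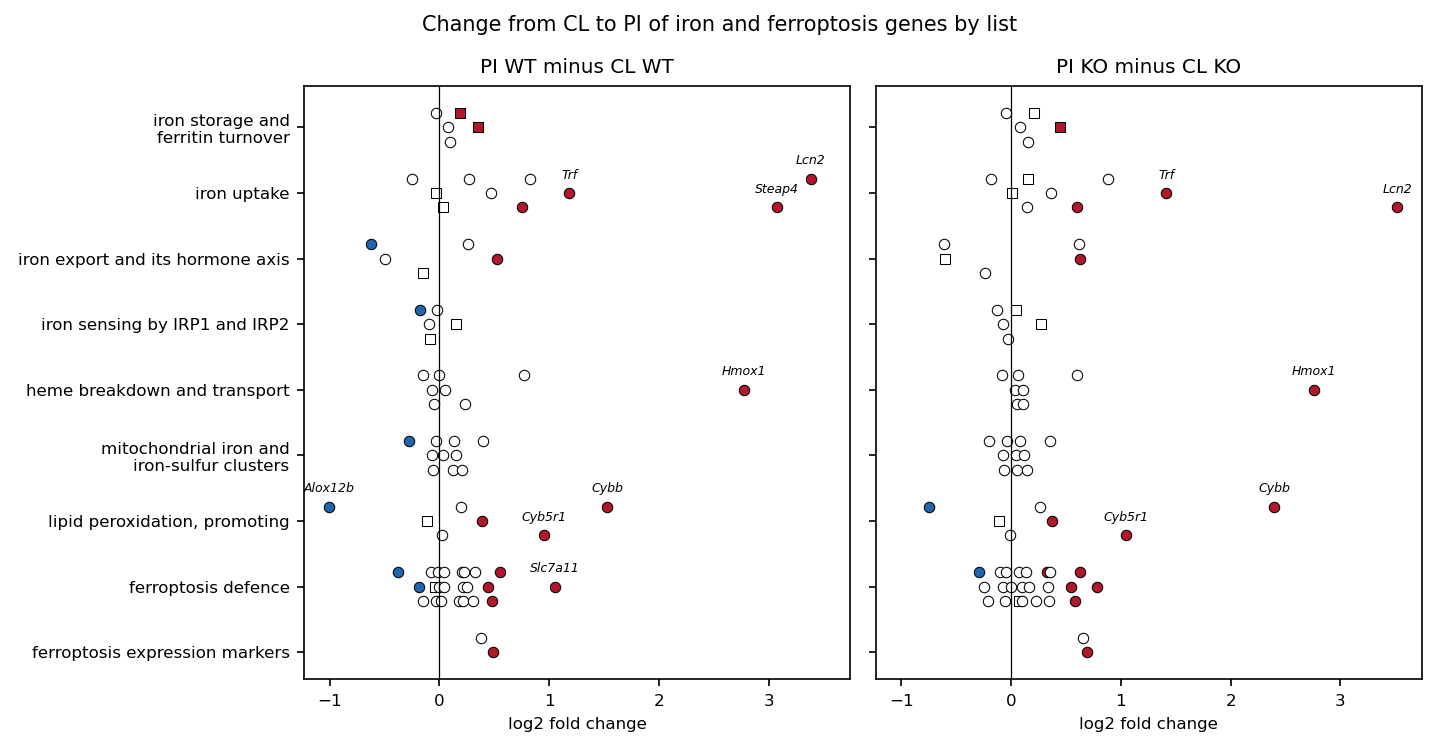
Log2 fold change from CL to PI (x axis) of each listed gene of the 9 wider lists (y axis), WT animals on the left and KO animals on the right. Squares are Fth1, Ftl1 and the other 7 members and circles the wider genes, red passed as higher, blue as lower and white did not pass; Lcn2 and Hmox1 lie above 2.7 in both genotypes and Steap4 at 3.07 in WT.

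None of the other listed genes passed between genotypes, 0 of 66 on the PI side, 0 of 64 on the CL side and 0 of 65 in the interaction. Of these, 2, 3 and 1 had an unadjusted p under 0.05. On the PI side they were Ptgs2, at 0.39 (SE 0.11, adjusted p 0.755), and Pdss2, at -0.29 (SE 0.11, adjusted p 0.852). On the CL side they were Slc7a11, at 0.21 (SE 0.08, adjusted p 0.778), Glrx5, at 0.31 (SE 0.13, adjusted p 0.824), and Acsl3, at -0.16 (SE 0.04, adjusted p 0.589). In the interaction it was Pdss2, at -0.47 (SE 0.17, adjusted p 0.992).

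Cell type markers moved with side as well, and their part in the ferritin and pathway differences was not tested. Sums below run from the lowest to the highest of the 6 libraries and add deposited values, with extremes drawn in. This narrows the ranges and makes a lack of overlap easier to reach, and the share of other gene sets without overlap was not computed. All 5 markers of reactive astrocytes rose in both genotypes, and their summed level was 102 to 128 CPM in CL WT and 416 to 483 CPM in PI WT, 99.2 to 117 CPM in CL KO and 398 to 568 CPM in PI KO. Of the 5 listed macrophage and monocyte markers 3 rose in both genotypes (Cd68, Msr1 and Mrc1), with sums of 14.3 to 16.8 CPM in CL WT and 38.5 to 49.0 CPM in PI WT, 15.9 to 18.8 CPM in CL KO and 43.1 to 52.9 CPM in PI KO. Of 6 microglial markers 2 rose and 1, P2ry12, fell in both genotypes, and the summed level was 151 to 163 CPM in CL WT and 155 to 176 CPM in PI WT. Of 5 neuronal markers 3 fell in WT and 2 in KO, with sums of 7204 to 7732 CPM in CL WT and 6172 to 6777 CPM in PI WT. Of 6 cortical excitatory neuron markers 1 fell in WT (Camk2a, by 0.44, adjusted p 0.000721) and 2 in KO (Camk2a, by 0.59, adjusted p 7.62e-05, and Tbr1, by 0.26, adjusted p 0.0270). Their sums did not overlap, at 1711 to 1832 CPM in CL WT and 1435 to 1566 CPM in PI WT, and 1779 to 1926 CPM in CL KO and 1368 to 1509 CPM in PI KO. The summed level of the 3 listed markers of the striatum, the region below the cortex, was higher in PI without overlap. In WT it was 52.0 to 63.7 CPM in CL and 68.9 to 91.1 CPM in PI. In KO it was 49.7 to 60.0 CPM in CL and 61.6 to 88.5 CPM in PI. Of the 3, only Ppp1r1b passed, in WT, by 0.63 (SE 0.15, adjusted p 0.0151), and it was at 0.50 (SE 0.19, adjusted p 0.124) in KO. Drd1 and Rgs9 were at 0.0042 (adjusted p 0.989) and 0.08 (adjusted p 0.869) in WT. In KO they were at 0.12 (adjusted p 0.661) and 0.26 (adjusted p 0.421). Of 5 general astrocyte markers 1 rose (Aqp4) and 1 fell (Gja1) in both genotypes, and of 5 endothelial markers 0 passed in WT and 1 fell in KO (Slco1a4). Of 6 oligodendrocyte markers, which matter here because these cells are rich in iron and transferrin, 1 fell in WT and 0 in KO. Their sums were 2080 to 2272 CPM in CL WT and 1429 to 2039 CPM in PI WT. In KO the sums overlapped, at 1663 to 2254 CPM in CL and 1590 to 1806 CPM in PI. None of 4 listed red blood cell genes passed, with sums of 12.3 to 52.1 CPM in CL WT and 30.01 to 50.4 CPM in PI WT. The 5 neutrophil markers were not among the genes tested between the sides.

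The genes whose values most resembled the ferritin chains across the 24 libraries, each table centred on the gene's mean, are given as a description. The libraries share the difference between the sides, and the values are as deposited, with extremes drawn in, which reduces the spread within groups. Closest to Fth1 among 14211 genes were 1810037I17Rik (Pearson r 0.898) and the ribosomal protein genes Rps26 (r 0.887) and Rps13 (r 0.879). Closest to Ftl1 were the chemokine gene Ccl9 (r 0.965), the estrogen receptor gene Esr1 (r 0.959) and Aars, an alanyl-tRNA synthetase gene (r 0.959).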

How the data were processed

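The data are 24 RNA libraries of mouse cortex, extracted with TRIzol and DNase-treated, depleted of ribosomal RNA with RiboCop and built with the CORALL kit, per the labels' protocols. The authors deposited log2 CPM in 4 tables of 12 columns, with 0 unused columns of values. The build is mm10, per the submitters' processing notes. The aligner, the counter, the annotation, the use of strand and the scaling are not given in the sources used here.

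Group extremes had been drawn in, a step that no label records: the tied low value weights the second lowest library by 0.75 and its upper neighbour by 0.25, and the tied high value mirrors it. Solving this gave the 4 inner values. Of 5962 tied low values, 85.5% were whole reads after recovery (within 0.05 read) and 19.0% as deposited, while 80.6% to 90.3% of untouched low values per library were whole. A count test was not run, because tied values are not reads.

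Groups were compared by a moderated trimmed-mean test: means of 4 inner values, Winsorized variance with 6 degrees of freedom (12 for the interaction), limma 3.58.1 in R 4.3.3 with a mean-dependent prior, two-sided p-values and Benjamini-Hochberg adjustment over all genes of a table. The threshold on adjusted p was 0.05. PI and CL libraries with the same number come from the same animal, per the labels, and a fit with the animal as block (3 degrees of freedom, 6 for the interaction) was an alternative; deviations of the same animal correlated at -0.04 to 0.25 in WT and -0.04 to 0.23 in KO, and 4 of 6 animals in each genotype correlated best with their own number. On data simulated for PI WT and CL WT with 14489 genes over 10 runs, 5.51% of unchanged genes had p under 0.05 and at most 2 were called. Of genes changed by 0.5, 1 and 2 on the log2 scale, 71.6%, 91.2% and 98.9% were called, and 5.53% of calls were false. The simulated noise was set below the measured Winsorized spread of each gene, so these shares called are likely higher than in the real data. limma on simulated drawn-in values gave p under 0.05 for 29.3% of unchanged genes.

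The members and gene lists were chosen with earlier results of these data known, so a pattern in them is no independent support. Named were all members, listed genes that passed, the gene with the largest difference where none of a list passed, the 3 genes most correlated with each member called, and pseudogene rows named after a member. Skp1a is listed as Skp1. Positions come from GENCODE M21 on GRCm38, the assembly of mm10. Alternatives were 9 other settings and each library left out. The result of the mitochondrial iron list is not reported here.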

Additional observations from a re-analysis of the deposited data

How the results depend on the processing

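Direction and call of every member in every comparison stayed the same with pseudocounts of 0.5 and 2 CPM, with a minimum mean of 1 log2 CPM and with centring on the median gene. The number of genes called moved with the model of the spread. limma on the deposited, drawn-in values called 6459 genes between PI WT and CL WT (5 members), 6666 between PI KO and CL KO (6 members), 2388 between PI KO and PI WT (1 member), 2311 between CL KO and CL WT (3 members) and 1940 in the interaction (1 member); the simulated data showed many false calls in this setting. Without a trend in the prior variance 1015 genes (1 member) were called in WT and 739 in KO. In that setting 22 calls of the wider lists were kept and 14 were lost. Trf in WT, Acsl3 in WT and Cybb in KO were each called in 8 of the 9 other settings. Their highest adjusted p was 0.0553, 0.0559 and 0.0517. Centring on the genes above the median level called 2 members in KO and turned Aco1 between PI KO and PI WT to -0.000876. With the replicate block, the paired trimmed means called 2176 genes and 2 members between PI KO and CL KO and 2304 genes between PI WT and CL WT, and the only member whose call changed was Fth1 in KO. The same animal block called 1 gene in the interaction. Between genotypes a shared number does not mark a shared animal; blocking on it called 6 genes on the PI side and 87 on the CL side. limma with the replicate block called 6614 genes (5 members) in WT, 6759 (7 members) in KO, 1800 (1 member) on the PI side, 1868 (1 member) on the CL side and 2216 (2 members) in the interaction.

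With a library left out, chosen after seeing the data, 1119 to 1471 genes and 1 to 2 members were called in WT, 901 to 1600 genes and 1 member in KO (930 without PI KO replicate 2 and 901 without CL KO replicate 5), 3 to 4 genes on the PI side, 4 to 8 on the CL side and 0 in the interaction. The small differences that changed sign were none of them called: in WT Tfrc (-0.0110 to 0.0745) and Slc40a1 (-0.255 to 0.00244), in KO Slc11a2 (-0.0261 to 0.0428), between PI KO and PI WT Fth1 (-0.0174 to 0.0452) and Aco1 (-0.0277 to 0.0458), between CL KO and CL WT Fth1 (-0.0252 to 0.0320) and Ftl1 (-0.0212 to 0.0256), and in the interaction Fth1 (-0.0160 to 0.0460) and Acsl4 (-0.0174 to 0.0202). On the simulated data, with noise set below the measured spread, 71.6% of changes of 0.5 on the log2 scale were called. That share is likely lower in the real data. Smaller changes, the size of most member differences, were not simulated.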
